A study of Arabidopsis thaliana with 4 samples.

Results

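Among Arabidopsis thaliana genes whose symbol in the gene table is a locus code, 121 nuclear genes gave at least 3 times more array signal in both Columbia genotypes than in either Nossen genotype. Each is read by 1 member probe set. They were chosen out of 11798 locus-coded nuclear genes, which have 11933 probe sets, on an array of 22746 non-control probe sets. The rule first raised low signals to a fixed floor, close to the 40th percentile of all non-control signals (102.3), and kept a probe set where the lower of the Col-0 and OE6 signals was at least 3 times the higher of the NO and duf761-1 signals. It left out 5 genes by name, none of which reached 3-fold, with values between 0.876-fold for AT1G67600 and 2.84-fold for AT5G20790. Since the rule used all 4 arrays, the Columbia-high level is a description of how the genes were chosen, and no finding rests on it.

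The study profiled whole seedlings at 2 weeks of age from 4 genotypes on Affymetrix ATH1 arrays, where a probe set of short oligonucleotides reads each transcript. NO is the wild type of the Nossen accession and duf761-1 a mutant of the same cultivar. Col-0 is the wild type of the Columbia accession and OE6 a transgenic Columbia line that overexpresses DUF761-1, a protein named after a domain of unknown function. The labels do not say what drives the transgene, and OE6 is 1 line. All plants had half-strength MS medium with 2% sucrose, a temperature of 22 °C and days of 16 h light and 8 h dark, the light at 100 µmol per m2 per s. Each genotype has 1 array, so no value below has an error, there is no test, and differences are compared by size. The labels give no locus for DUF761-1 and no table used here names it, so its own level was not read.

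Accessions are natural inbred strains, and their genomes carry sequence differences, missing or duplicated genes and regulatory variants that can change the level of a transcript. A locus code such as AT1G23130 gives a gene's chromosome (AT1 for the first) and its place in the order along it, as annotated in Columbia. A gene with this code as its symbol can still have another name or a described product, as AT1G54410 below does. ATH1 probes were designed on Columbia sequence. Whether a sequence difference in Nossen lowers the signal of a member was not tested, and a weak probe match cannot be told apart from less transcript with these values. In whole seedlings, fewer cells of a type and less RNA per cell cannot be told apart either. All 121 genes are annotated as protein-coding. The gene table gives no product for them apart from AT1G54410, listed with the synonym dehydrin 11kDa and kept because the rule reads the symbol, so no role is stated for the others, and their sequences were not used here.

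All 4 arrays had been scaled to the same trimmed mean of 500, and between 58.4% and 61.7% of non-control probe sets lay above the floor. The actin control, as 3′ over 5′ probe set signal, stood at 0.279 in NO, 0.267 in duf761-1, 1.61 in Col-0 and 2.06 in OE6, so it separated the accessions as the members do, whereas the same ratio for GAPDH ran from 0.754 to 0.887 with no such separation. What part, if any, this has in the members' values was not tested. Of the marker genes listed for leaf and photosynthesis, 2 of 5 had a named probe set, and LHCB4.1, a light-harvesting protein gene, gave 20409 in NO, 19626 in duf761-1, 18061 in Col-0 and 17984 in OE6. The other, SBPASE, which encodes a Calvin cycle enzyme, gave 13142, 12460, 8464 and 8384 on the same arrays, so it too separated the accessions, and its part in the members' values was not tested. Of the root markers 3 of 5 had one. PYK10, a root beta-glucosidase gene, ran from 15882 to 16513, and the root hair expansin genes EXPA7 and EXPA18 from 79.1 to 196 and from 188 to 426. EXPA7 was lowest in NO and EXPA18 highest there. The 3 flower and 3 seed markers have no named probe set here.

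The members were 1.01% of the locus-coded probe sets to which the rule applied. The median member had a signal of 154 in NO, 156 in duf761-1, 1052 in Col-0 and 904 in OE6. The lower Columbia signal was between 3.001 and 63.7 times the higher Nossen signal, with a median of 4.27. It was at least 4 times as high for 68 members, at least 8 times for 21, at least 16 times for 5 and at least 32 times for 1. At the threshold, AT1G25275 (3.02-fold), AT5G44400 (3.01-fold) and AT2G02570 (3.001-fold) lay just inside, and AT1G73750 (2.996-fold), AT4G16770 (2.994-fold, a bound) and AT4G33960 (2.993-fold) just outside.

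**Figure D1:**
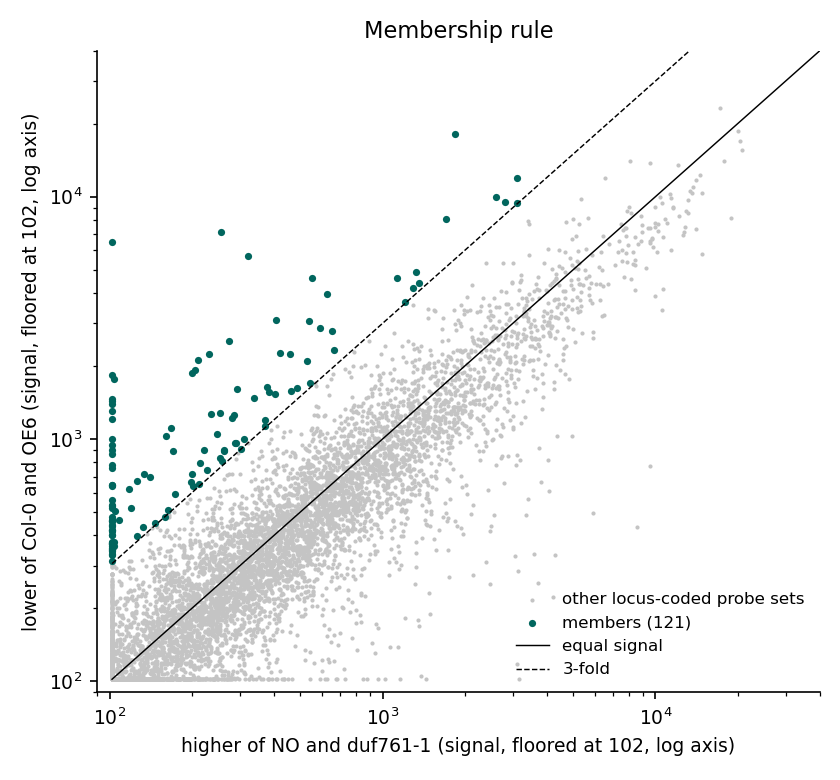
Each point is a locus-coded probe set, with the higher of the NO and duf761-1 signals on the x axis and the lower of the Col-0 and OE6 signals on the y axis, both raised to the floor where lower, on log axes. The solid line marks equal signal and the dashed line 3-fold, and the 121 members (green) lie on or above the dashed line, many of them stacked at the floor on the x axis.

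Members were split by whether their Nossen signals passed the floor. In 44 of them, 36.4%, both Nossen signals were at or below the floor, in 8 only 1 was, and in 69, 57.0%, both were above it. For the 44, a fold is a lower bound. Their Col-0 signals ran from 333 to 8413 with a median of 617. The 69 members measured in all 4 genotypes had a median of 273 in NO, 266 in duf761-1, 1613 in Col-0 and 1534 in OE6. Their folds had a median of 3.96 and reached 27.8.

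AT1G23130 stood furthest apart. Its signal was 48.9 in NO, 46.4 in duf761-1, 8413 in Col-0 and 6497 in OE6, so it was below the floor on both Nossen arrays and at least 63.7-fold higher on the Columbia arrays. AT3G62550 was measured on all arrays, at 256 in NO, 233 in duf761-1, 7619 in Col-0 and 7123 in OE6, a 27.8-fold difference between the nearest values of the accessions. In both genes the Columbia genotypes lay close together compared with their distance from Nossen.

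AT4G34950 had signals of 55.8 on NO and 49.5 on duf761-1 against 1830 on Col-0 and 1963 on OE6, at least 17.9-fold. AT5G44580 gave 265 in NO, 321 in duf761-1, 7055 in Col-0 and 5707 in OE6, 17.8-fold. AT1G67865 gave 86.8, 104, 2201 and 1774 on the same arrays, 17.1-fold against a duf761-1 signal just above the floor. These 5 genes are the members at 16-fold or more, and only AT4G34950 was higher on OE6 than on Col-0.

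The rest of the 10 furthest members were below the floor on both Nossen arrays. AT5G62360 gave 21.3 in NO, 9.33 in duf761-1, 2730 in Col-0 and 1464 in OE6, at least 14.4-fold. AT1G56300 gave 71.5, 72.2, 1544 and 1428, at least 14.0-fold. AT4G16146 gave 67.8, 46.8, 1444 and 1401, at least 13.7-fold. All 3 were lower on OE6 than on Col-0, by little in AT4G16146 and by most in AT5G62360. AT5G24210 gave 59.9 in NO, 32.5 in duf761-1, 1307 in Col-0 and 1420 in OE6, at least 12.8-fold. AT1G70820 gave 8.42, 38.2, 1486 and 1208, at least 11.8-fold. Values as low as these on the Nossen arrays have no order, since they lie far below the floor.

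**Figure D2:**
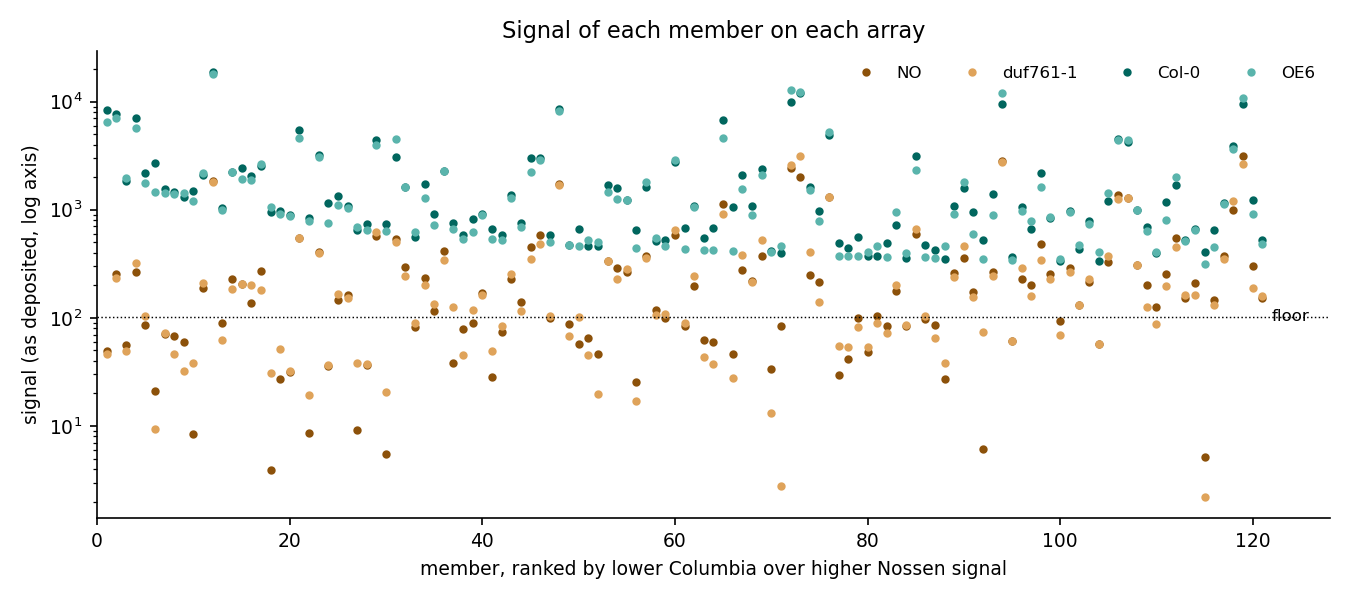
Signal of each of the 121 members (x axis, ranked from the 63.7-fold member on the left to the 3.001-fold member on the right) on each of the 4 arrays (y axis, as deposited, log scale), with the floor dotted. The Columbia points (green shades) lie above the Nossen points (brown shades) for every member, as the rule requires, and the scatter of the Nossen points below the floor carries no information on order.

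The members with the highest Columbia signals were all above the floor in Nossen, so their folds are measured on both sides. AT1G13930 gave 1835 in NO, 1822 in duf761-1, 18784 in Col-0 and 18175 in OE6, 9.90-fold, with the genotypes of 1 accession at most 1.03-fold apart. AT1G54410, the dehydrin gene, of a family of small hydrophilic proteins known for building up under drought and cold, gave 1988 in NO, 3118 in duf761-1, 11885 in Col-0 and 12174 in OE6, 3.81-fold. Its duf761-1 signal was 1.57 times its NO signal, one of the wider gaps between the Nossen arrays.

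AT2G25450 gave 2430 in NO, 2602 in duf761-1, 9954 in Col-0 and 12735 in OE6, 3.83-fold. AT3G22240 gave 2807, 2770, 9471 and 12125, 3.37-fold. AT1G25275 gave 3122, 2673, 9418 and 10851, 3.02-fold. These 3 were all higher on OE6 than on Col-0, which most members were not.

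Chromosomes held similar numbers of members, 29 on chromosome 1, 25 on chromosome 2, 21 on chromosome 3 and 23 each on chromosomes 4 and 5. As a share of the locus-coded probe sets of each chromosome, this was between 0.853% on chromosome 5 and 1.33% on chromosome 4. Cross-hybridisation, by the probe set's suffix, was flagged for 1 member, AT3G26070, named after its values were seen, against 1.39% of locus-coded probe sets with the same suffix, which marks probes shared by several transcripts. Members with a suffix for probes that match related sequences numbered 0, where 0.897% of locus-coded probe sets have it.

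A further probe set of the same gene exists for 3 members, and in none of them did it meet the rule. For AT4G16180 the member probe set gave 146 in NO, 133 in duf761-1, 649 in Col-0 and 448 in OE6, 3.06-fold, and the other probe set gave 277, 421, 639 and 705. By the latter, the lower Columbia signal was 1.52 times the higher Nossen signal, so both put Columbia above Nossen and differ on the size. For AT3G19515 the member probe set gave 199, 160, 667 and 780, and the other 61.4, 50.8, 107 and 68.3. For AT1G62760 the member probe set gave 93.4, 69.7, 337 and 348, while the other had signals of 9.49 or less on every array. The second probe set was at or under the floor or just above it in AT3G19515 and far below it in AT1G62760, and in neither does it measure a ratio.

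Several members are neighbours on the chromosome. In the order of protein-coding genes of the Columbia annotation, 5 pairs of members are directly adjacent and 3 more pairs lie 3 places apart, 16 members in all. Members near each other were chosen by their signals, so their number is a description of the set. Genes outside the set were read beside them. A locus-coded gene at 3-fold is a member by the rule, so these neighbours were compared at 2-fold. Next to 88 of the members, 117 genes outside the set have a named probe set, and 6 of them, 5.13%, were at least 2-fold Columbia-high, against 2.17% of all 12141 measured genes that are not members. The 6 include AT5G20790 (2.84-fold), which the rule left out by name, and ETFBETA (3.72-fold), outside the set because it has a symbol. At least 2-fold Nossen-high was 1 of the 117, 0.855% against 1.94%. Within 2-fold either way were 110, 94.0% against 95.9%. Genes below the floor on every array count here with a fold of 1, though their ratio is not measured. For these genes the share shows no likeness between the accessions. The Columbia-high share did not fall steadily with distance. It was 5.56% for 2 places away, 3.33% for 3, 1.96% for 4, 5.08% for 5 and 1.94% for 6. Further out it was 5.49% for 7, 5.26% for 8, 1.87% for 9 and 2.91% for 10, each share from 2 to 6 genes. Whether these shares differ from the background was not tested.

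**Figure D3:**
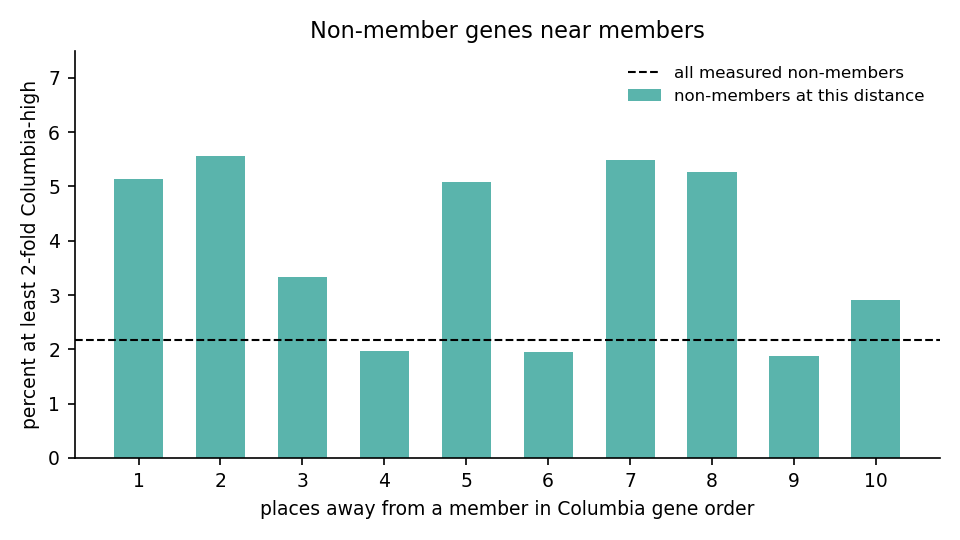
Share of measured protein-coding genes outside the set that were at least 2-fold Columbia-high, in percent (y axis), by the number of places from a member in the Columbia gene order (x axis), with the share over all 12141 measured non-members as a dashed line (2.17%). The bars lie between 1.87% and 5.56%, each from 2 to 6 genes, with 5.13% next to a member.

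Adjacent genes may be copies of each other, and copies of a gene can share probe signal, so the values of a pair are uncertain as separate measurements. Whether these pairs share sequence was not tested. On chromosome 4, AT4G30650 gave 273 in NO, 180 in duf761-1, 2533 in Col-0 and 2640 in OE6, 9.29-fold. Its neighbour AT4G30660 gave 406, 399, 3195 and 3092, 7.61-fold. Within 3 places of this pair, the genes measured and above the floor were AT4G30620, AT4G30630 and AT4G30670. Their lower Columbia signals were only 0.994, 1.45 and 1.18 times the higher Nossen signals.

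On chromosome 5, AT5G62350 gave 1713 in NO, 1700 in duf761-1, 8546 in Col-0 and 8109 in OE6, 4.74-fold, beside AT5G62360 described above. Nossen signal was clear for AT5G62350 and below the floor for AT5G62360. On the other side of AT5G62350, AT5G62340 gave 556.5 in NO, 545 in duf761-1, 229 in Col-0 and 589 in OE6, so there Col-0 alone was low and the accessions overlapped.

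On chromosome 1, AT1G67860 gave 275 in NO, 382 in duf761-1, 2087 in Col-0 and 1559 in OE6, 4.08-fold, beside AT1G67865. The next gene, AT1G67870, gave 1448, 1632, 2547 and 1917, with Columbia 1.17 times Nossen at the nearest values.

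On chromosome 2, AT2G29310 gave 234 in NO, 202 in duf761-1, 1723 in Col-0 and 1270 in OE6, 5.42-fold. AT2G29320 gave 115, 133, 916 and 720, 5.41-fold. The pair sits in a run of measured genes that did not all follow it. AT2G29290 gave 1507 in NO, 1508 in duf761-1, 2342 in Col-0 and 2228 in OE6, 1.48-fold, and AT2G29300 gave 42.7, 59.2, 315 and 118, below the floor in Nossen and not far above it in OE6. AT2G29330, named TRI for tropinone reductase, was below the floor on every array, and AT2G29340 was higher in Nossen, at 1796 in NO, 1545 in duf761-1, 1025 in Col-0 and 1034 in OE6.

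On chromosome 3, AT3G44620 gave 291 in NO, 266 in duf761-1, 981 in Col-0 and 961 in OE6, 3.30-fold. AT3G44630 gave 57.1, 101, 659 and 464, at least 4.55-fold. The gene before them, AT3G44610, was below the floor in both Nossen genotypes and at 213 on Col-0 and 181 on OE6.

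**Figure D4:**
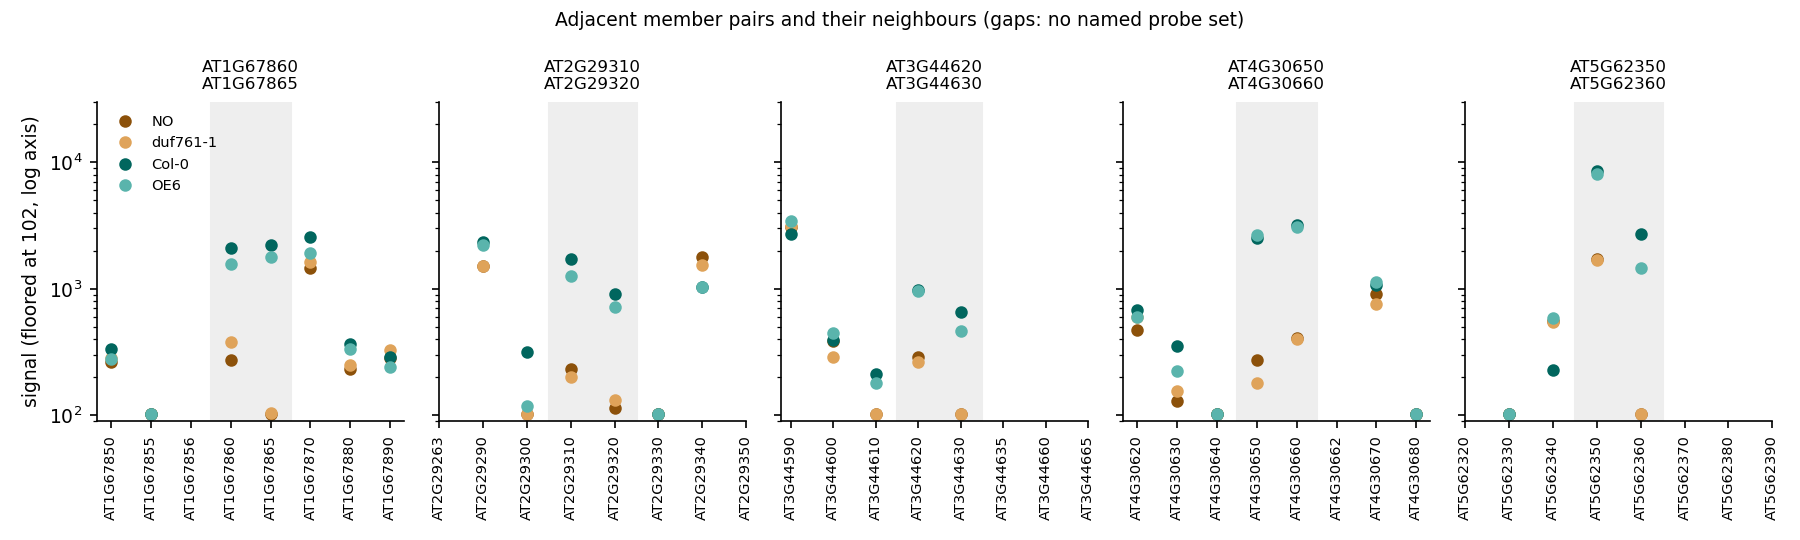
Signals on the 4 arrays (y axis, raised to the floor where lower, log scale) for the 5 adjacent pairs of members (shaded) and up to 3 protein-coding genes on either side in Columbia order (x axis; genes without points have no named probe set). The shaded genes show the Columbia points (green shades) well above the Nossen points (brown shades), and the measured flanking genes are within 2-fold by the nearest values of the accessions. Some of these flanking genes are at the floor on every array, where no ratio is measured.

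The pairs 3 places apart, chosen after their values were seen, were AT2G15960 with AT2G16005, AT2G43530 with AT2G43550, and AT5G37990 with AT5G38020. For AT2G43530 the signals were 230 in NO, 253 in duf761-1, 1369 in Col-0 and 1281 in OE6, and for AT2G43550 they were 189, 210, 2114 and 2200. Of the genes between them, AT2G43535 gave 1281 in NO, 1141 in duf761-1, 3136 in Col-0 and 1508 in OE6, with Col-0 alone well above the rest, and AT2G43540 gave 501 in NO, 406 in duf761-1, 456 in Col-0 and 505 in OE6. The 1 adjacent gene outside the members that reached 3-fold was ETFBETA, which encodes a subunit of an electron transfer flavoprotein of mitochondria, beside the member AT5G43440, both named after their values were seen. It gave 82.2 in NO, 142 in duf761-1, 529 in Col-0 and 579 in OE6, 3.72-fold, while AT5G43440 gave 60.3, 37.4, 680 and 420. AT1G62770, beside the member AT1G62760, was the 1 adjacent gene at least 2-fold Nossen-high, at 2101 in NO, 1540 in duf761-1, 642 in Col-0 and 491 in OE6.

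The wild types and the lines form separate pairs of arrays that share no array. Of 11928 locus-coded probe sets, with the 5 named genes left out, Col-0 was at least 3-fold over NO in 197, 1.65%, and OE6 at least 3-fold over duf761-1 in 171, 1.43%. The lists had 130 in common, 66.0% of the first and 76.0% of the second. Of the 197 chosen on the wild types alone, 182 or 92.4% had OE6 signals at least 2-fold above duf761-1, and 0 had them 2-fold below. The 121 members are 61.4% of the 197, and by the rule each of them has OE6 at least 3-fold over duf761-1. These shares therefore describe the signals the rule used and are no separate support for the set. The share of all 11928 at 2-fold in the lines was not counted.

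The mirrored rule, with the lower Nossen signal at least 3 times the higher Columbia signal, found 79 locus-coded probe sets, 0.662%, so Columbia-high sets outnumbered Nossen-high ones with the deposited scaling. That order depended on the scaling of the arrays, with 97 Columbia-high and 99 Nossen-high after median scaling, and 190 and 46 after scaling on spike-in controls. Among the 79, both signals of the lower accession were at or below the floor in 15, 19.0%, against 36.4% of the members. Of probe sets outside the locus-coded ones, the Columbia-high rule was met by 30 of 1580 for 1 gene with a symbol or an organelle gene (1.90%), by 8 of 503 for several genes (1.59%) and by 141 of 8730 that are unnamed here (1.62%). Over all non-control probe sets it was 1.32%.

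The rule takes the lower Columbia and the higher Nossen signal, so it drops genes in which 1 genotype of an accession moves towards the other accession. The ratios of the mutant and the overexpressor to their wild types are therefore descriptions of genes chosen on the same signals, and nothing is read from a low count beside its background. None of the members was 2-fold apart between duf761-1 and NO, where 0.327% of locus-coded and 0.492% of all non-control probe sets were. A ratio could be taken for the 77 members above the floor on at least 1 Nossen array. Their log2 ratios of duf761-1 over NO had a median of -0.02, quartiles of -0.21 and 0.14, and an SD of 0.28 across members. In 5930 other locus-coded probe sets of the same signal range the median was 0.00 and the SD 0.31. Of the 77, 46 were lower on duf761-1, 59.7% against 50.1%, and with scaling on spike-in controls the median was 0.034, on the other side of 0.

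At 1.5-fold, 4 of the 77 members with a ratio were lower on duf761-1 and 2 were higher. Within 1.5-fold were 92.2% of the 77, against 93.6% of the 5930 other probe sets of the same signal range. Over all 11933 locus-coded probe sets, 1.46% were lower and 1.82% higher, but many of these have no ratio, being at the floor on both arrays. AT5G44400 gave 302 on NO and 188 on duf761-1, a log2 ratio of -0.69, and AT4G30650 had one of -0.60. On the higher side were the dehydrin gene AT1G54410 at 0.65 and AT5G39520, which gave 250 on NO and 404 on duf761-1, at 0.69. AT1G53035 (-0.69) and AT5G50450 (-0.62) were the other 2 that were lower. Apart from AT5G44400, AT4G30650 and AT1G54410, these genes were chosen after their values were seen, and with 1 array each none of these differences can be set against a spread between plants.

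Of the members, 1 was 2-fold apart between OE6 and Col-0, where 0.503% of locus-coded and 0.664% of all non-control probe sets were. AT1G19200 had signals of 46.4 in NO, 27.7 in duf761-1, 1052 in Col-0 and 418 in OE6, so OE6 lay between Col-0 and the Nossen genotypes, 2.52-fold below Col-0 (log2 ratio -1.33) and at least 4.097-fold above the Nossen genotypes. Next was AT5G62360 at a log2 ratio of -0.90.

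Across the 121 members, chosen on both Columbia signals, the OE6 signals were more often the lower of the Columbia signals. The log2 ratio of OE6 over Col-0 had a median of -0.10, quartiles of -0.31 and 0.05 and an SD of 0.29, and 85 members, 70.2%, were lower on OE6. Among 3420 other locus-coded probe sets with both Columbia signals at 3 times the floor or more, which the rule asks of the members too, the median was -0.01, the SD 0.25, and 52.8% were lower on OE6. At 1.5-fold, 9 members were lower on OE6 and 0 higher, where 1.23% of those 3420 were lower and 1.29% higher. After scaling on spike-ins the shares lower on OE6 were 78.5% of members and 68.0% of the others, and after quantile normalization 68.6% and 49.3%. Of the members below the floor in both Nossen genotypes 31 of 44 were lower on OE6, with a median of -0.12 and 84.1% within 1.5-fold, and of those above it 48 of 69, with a median of -0.07 and 97.1% within 1.5-fold. The difference between these subsets was not tested.

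Besides AT1G19200 and AT5G62360, the members at least 1.5-fold lower on OE6 include AT5G43440, AT5G53420 and AT1G64590, chosen after their values were seen. AT5G53420 gave 174 in NO, 156 in duf761-1, 957 in Col-0 and 594 in OE6, a log2 ratio of -0.69. AT1G64590 gave 263, 242, 1393 and 891, one of -0.64. In both, OE6 remained over 3 times either Nossen signal, as the rule demands. The member highest on OE6 relative to Col-0 was AT4G16260, also chosen after its values were seen, at 537 in NO, 506 in duf761-1, 3077 in Col-0 and 4461 in OE6, with a log2 ratio of 0.54.

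**Figure D5:**
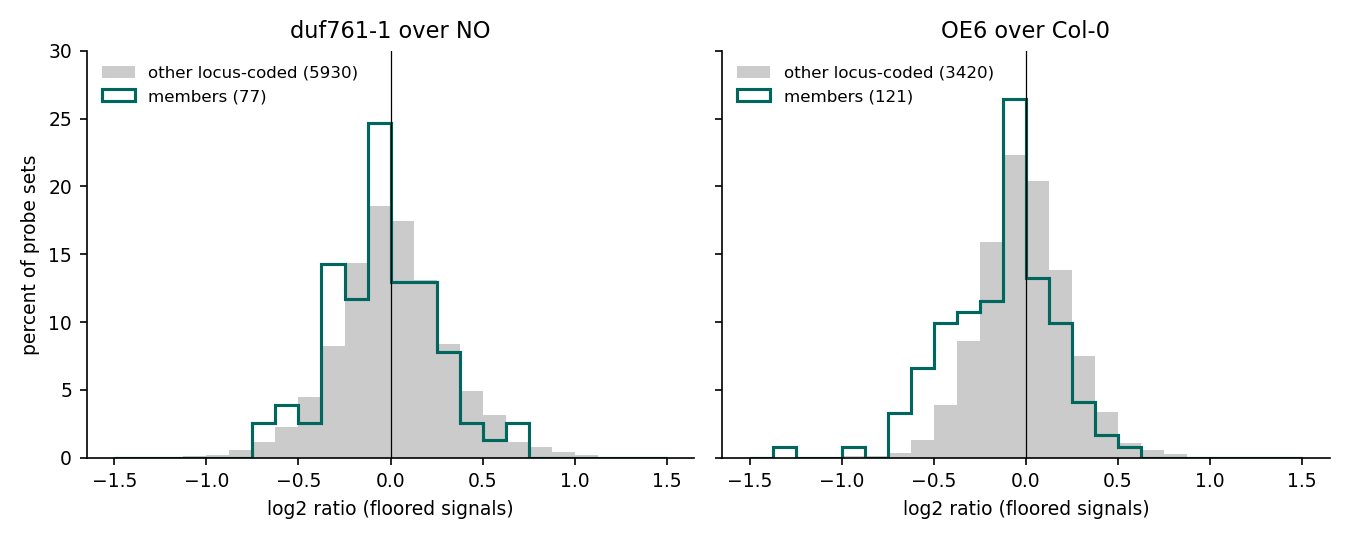
Distribution of log2 ratios (x axis) of duf761-1 over NO (left) and OE6 over Col-0 (right) for members (green line) and other locus-coded probe sets (grey), in percent of each set (y axis), with ratios beyond the axis drawn in the end bins. Members are centred near 0 on the left (median -0.02) and lean to lower OE6 on the right (median -0.10, 85 of 121 below 0).

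Taking both comparisons for the 77 members with a Nossen ratio, 31 were lower on duf761-1 and on OE6, 23 higher on duf761-1 and lower on OE6, 15 lower on duf761-1 and higher on OE6, and 8 higher on both. These comparisons share no array. Most members were lower on OE6 whichever way the Nossen ratio went, so no shared direction is read from these counts. They were not taken over other probe sets, and whether the ratios go together was not tested.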

How the data were processed

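The authors deposited linear signal intensities for 22810 ATH1 probe sets, 64 of them controls, which the submitters' processing notes credit to MAS5, whose release is not given in the sources used here. Biotin-labelled target was made from 6 µg of total RNA per genotype, per the labels' protocols. From the values, each array's mean after trimming 2% at each end is 500. A common mean hides differences in total mRNA, and MAS5 is noisy at low signal. The number of arrays limits the precision, and there are no detection calls.

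Signals under the floor were raised to it, close to the 40th percentile of non-control signals (102.3), before ratios and log2. Of the probe sets, 13513 carry 1 gene, 503 several and 8730 none in the annotation used. Names came from the TAIR10.1 gene table, 11885 locus-coded probe sets by gene ID and 48 by locus tag. The files name no build, so that table served for names and gene order alone. In gene order, a member gene stood with its member probe set and any other gene with its brightest probe set by mean log2 signal. Values were computed with Python 3.11.15, NumPy 2.4.6, pandas 2.3.3 and matplotlib 3.10.9. The code for the rule was run on simulated arrays made from the NO signals. Folds were added only to probe sets above the floor in NO, so members below it there were not covered.

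Genes named are the 10 with the highest fold, the 5 with the highest Columbia and the 5 with the highest Nossen signal, those 2-fold apart within an accession, 3 on either side of the threshold, adjacent members and members with a further probe set. Other members named were chosen after their values were seen. Members and lists were chosen with earlier results of these data known. Lists by product, protein sequence and promoter motif were planned and not made, as the tables used here hold neither products nor sequences.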

Additional observations from a re-analysis of the deposited data

How the results depend on the processing

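The number of members followed the floor, the scaling and the fold asked. It was 190 with spike-in scaling, 368 without a floor, 65 with one at the 60th percentile, 323 at 2-fold and 68 at 4-fold, while median scaling (97), quantile normalization (113), the floor at the 25th percentile (178), the pseudocount (85) and leaving out suffixed probe sets (120) stayed within 1.5 times of 121. Of the 121, 78 were kept with the pseudocount and 65 under the 60th percentile floor. Members 2-fold apart between duf761-1 and NO numbered 12 without a floor, where low signals count, 2 under the 25th percentile floor, and 6 at 1.5-fold. For OE6 against Col-0 there were 9 at 1.5-fold and 0 at 3-fold. The median log2 ratio of duf761-1 over NO, -0.021, was 0.034 with spike-in scaling, and all other alternatives kept its sign. The median of OE6 over Col-0 stayed below 0 under each scaling. Between 83 and 95 of 121 members were then lower on OE6, a count chosen after the values were seen. The floors and the pseudocount cannot change these signs, and the count stayed at 85. All Columbia signals of members, at 313 or more, lie above every floor tried. AT1G19200 ranged from -1.42 to -1.15 for OE6 over Col-0. For the 43 named members, some named after their values were seen, 578 of 602 within-accession values moved by under 0.28 on the log2 scale and 24 by more, and 12 changed sign. Changing or dropping the floor cannot move a member's OE6 over Col-0 value, so part of the 578 was fixed in advance. No paired analysis was possible because each genotype has 1 array. The lack of replicates limits every value, and signals near the floor limit the 44 members without usable Nossen signal.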
